A study of Mus musculus with 12 samples.

Results

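The genes described here are 45 genes of the G2 and M phases of the cell cycle, taken by gene symbol from the 55401 genes counted in RNA-seq of mouse muscle satellite cells. All 45 were found in the count table. They comprise 2 transcription factors, 5 genes of the cyclin and *Cdk1* machinery, 9 mitotic kinases, 2 partners of the chromosomal passenger complex, 7 centromere and kinetochore genes, 3 genes of anaphase promotion, 8 kinesins, 4 spindle-binding proteins, 3 cytokinesis genes and 2 chromosome proteins. Apart from *Plk4*, which had too few reads (between 2 and 11 in a quiescent library, 4 in 1 WT activated library and 0 in the 3 other activated libraries), 44 of them could be tested.

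Satellite cells are the stem cells of skeletal muscle, and in resting adult muscle they sit outside the cell cycle. A dividing cell first copies its DNA in S phase and only afterwards, in G2 and M, builds up the kinase CDK1 with its cyclins, a spindle and kinetochores, so transcripts of the latter genes peak late in the cycle. In resting cells most of these genes are held low by the DREAM complex, and in cycling cells MYBL2 and FOXM1 switch them on. The protein products are then destroyed in mitosis by the anaphase-promoting complex (APC/C), which CDC20 activates.

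RNA came from *Pax7*-ZsGreen+ cells sorted from the hind limbs of adult mice 3 to 4 months old. Every mouse carried *Cxcr4* FL/FL and the *Pax7*-ZsGreen reporter and was given 80 mg/kg tamoxifen on 5 days, followed by tamoxifen diet per the methods. *Cxcr4* KO mice also carried *Pax7*-creERT2, which deletes in *Pax7*-expressing cells, and *Cxcr4* WT mice lacked cre, so the presence of cre itself differs between the genotypes. For each genotype there were 4 quiescent libraries from freshly sorted cells and 2 activated libraries from cells cultured overnight. Nothing in the labels ties the libraries to individual mice, so p-values measure the spread between these libraries, which may in part be technical. In such bulk samples, fewer cells in G2 or M and less of each transcript per cell cannot be told apart.

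Depth was 12775593 to 23717013 counts in the quiescent libraries and 3172164 to 5427280 counts in the activated libraries, where the gene CT010467.1, with ribosomal RNA sequence, took 11.5% to 40.3%. *Cxcr4* was at 59.1 to 112 CPM (each gene's share of a library's counts on the CPM scale, with edgeR's TMM scaling) in quiescent WT against 12.5 to 21.2 CPM in quiescent KO, and at 33.3 and 14.4 CPM in activated WT against 5.39 and 13.7 CPM in activated KO, so *Cxcr4* in replicate 2 of the activated groups was close between the genotypes. *Pax7* was detected in every library, at 71.2 to 482 CPM. All quiescent libraries carried *Ddx3y* of the Y chromosome (289 to 570 CPM) with little *Xist*, whereas all activated libraries carried *Xist* (451 to 817 CPM) and at most 2.28 CPM of *Ddx3y*, so state and sex cannot be told apart. Summed CPM of 8 satellite cell markers ran from 3178 to 5210 in quiescent and from 1047 to 1631 in activated libraries, and that of 8 mature fibre markers from 247 to 847 and from 6413 to 15862. Over the same states, 10 blood cell markers summed to 81.5 to 404 and 76.4 to 129 CPM, 8 endothelial markers to 254 to 1137 and 109 to 749 CPM, 8 fibroadipogenic progenitor markers to 664 to 2302 and 284 to 736 CPM, 6 smooth muscle and pericyte markers to 1438 to 2609 and 172 to 367 CPM, and 4 Schwann cell markers to 254 to 604 and 57.8 to 200.3 CPM.

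Late cell cycle promoters are known for 2 short elements, the cell cycle genes homology region (CHR, with the core TTTGAA), where MuvB complexes bind, and the CCAAT box bound by NF-Y. RefSeq promoter windows on GRCm38.p6, from 250 bases before to 50 bases after the gene start, were found for 37 of the 45 genes, in 39 windows. On either strand, TTTGAA occurred in 28 of the 39 windows (71.8%), against 17.9% of all 32851 windows. CCAAT also occurred in 28 of 39 (71.8%, against 37.4%), and both occurred together in 24 (61.5%, against 6.95%). Within 50 bases of the start, TTTGAA was present in 25 of 39 windows (64.1%, against 4.94%). For the variant cores the shares were 28.2% against 13.2% for TTTAAA, and for another, TTCGAA, they were 7.69% against 1.56%. For the E2F-type sequence TTCCCGC they were 2.56% against 4.6%, and for a second such sequence, TTGGCGC, they were 15.4% against 2.45%. DNA replication genes, which are transcribed earlier in the cycle, had 29 windows for 24 genes, with TTTGAA in 4 (13.8%), CCAAT in 20 (69.0%) and TTCCCGC in 13 (44.8%). The reverse complement of CCAAT shares letters with TTGGCGC where they adjoin, and a match is a description of the letters only. No window was found for *Foxm1*, *Ccna2*, *Aurkb*, *Incenp*, *Tpx2*, *Cdc25c*, *Kif20a* and *Spc24*.

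The stretches below show these elements in genes on which the results below turn, with capitals marking the CHR core or the CCAAT box on either strand, whose reverse complements read TTCAAA for the core and ATTGG for the box. Each begins 150 bases before the RefSeq gene start and ends before the first annotated exon base, and all are written 5′ to 3′ on the strand of the gene. *Cdk1*, the kinase that starts mitosis, lies at chr10:69352939-69353062 (minus strand), and *Cdc20*, the activator of the APC/C, at chr4:118437353-118437493 (minus strand). *Mki67*, which coats mitotic chromosomes, lies at chr7:135716380-135716529 (minus strand), *Top2a*, the topoisomerase that untangles sister DNA, at chr11:99024190-99024339 (minus strand), and *Kif11*, the motor that separates the spindle poles, at chr19:37376232-37376381 (plus strand). *Mybl2*, at chr2:163054485-163054634 (plus strand), is shown as a member with none of these sequences in this stretch.
Cdk1: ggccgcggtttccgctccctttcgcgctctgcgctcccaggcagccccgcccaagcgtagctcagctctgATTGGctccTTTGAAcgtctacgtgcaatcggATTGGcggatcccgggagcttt
Cdc20: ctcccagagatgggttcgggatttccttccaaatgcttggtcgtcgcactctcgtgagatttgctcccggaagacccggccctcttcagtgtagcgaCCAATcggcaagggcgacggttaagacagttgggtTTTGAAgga
Mki67: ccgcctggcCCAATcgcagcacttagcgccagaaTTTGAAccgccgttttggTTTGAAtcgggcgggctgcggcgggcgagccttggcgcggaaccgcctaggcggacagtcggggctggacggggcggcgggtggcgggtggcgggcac
Top2a: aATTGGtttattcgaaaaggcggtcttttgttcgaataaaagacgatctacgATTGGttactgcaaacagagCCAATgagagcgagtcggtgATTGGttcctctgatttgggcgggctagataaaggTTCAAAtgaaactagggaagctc
Kif11: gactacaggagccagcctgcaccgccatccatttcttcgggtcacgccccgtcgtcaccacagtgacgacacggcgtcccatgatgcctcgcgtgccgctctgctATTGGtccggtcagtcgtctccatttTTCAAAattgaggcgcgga
Mybl2: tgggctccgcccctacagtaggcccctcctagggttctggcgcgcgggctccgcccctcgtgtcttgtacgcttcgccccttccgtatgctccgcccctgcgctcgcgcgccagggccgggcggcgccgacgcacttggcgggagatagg

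**Figure D1:**
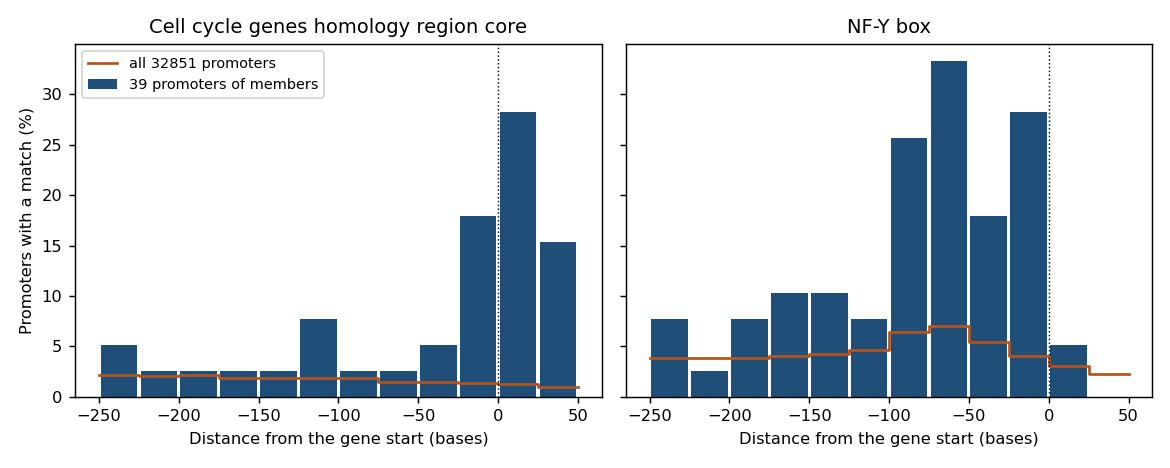
Share of promoter windows with a match to the CHR core TTTGAA (left) or to CCAAT (right), on either strand, by distance of the match from the gene start in bins of 25 bases. Bars are the 39 windows of the G2 and mitosis genes and the line is all 32851 windows; matches to TTTGAA in the members gather around the start, where 64.1% of windows have one within 50 bases.

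In freshly sorted cells the 45 genes were low but present, with no member at 0 counts in any of the 8 libraries. Per kilobase of exon, the scale on which genes can be compared, the highest levels in quiescent WT libraries were those of *Pttg1*, which encodes securin, at 10.8 ± 3.35 CPM per kb, and *Cdc20* at 5.57 ± 1.57 CPM per kb (SD, n = 4). *Mki67* at 3.06 ± 1.52, *Ccnb2* at 3.05 ± 1.20 and *Foxm1* at 2.16 ± 0.431 CPM per kb followed (SD, n = 4), and the library ranges of these 3 neighbours overlapped. *Cdc20* was above *Mki67* in each of the 4 libraries, at 6.93, 6.72, 5.05 and 3.58 against 3.40, 5.08, 1.77 and 2.02 CPM per kb. The lowest were the kinesins *Kif4* and *Kif11*, the kinetochore gene *Ndc80*, and the centrosome kinases *Plk4* and *Nek2*, all between 0.0457 and 0.292 CPM per kb.

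The quiescent libraries differed in the members as a group. Their summed level was 269, 386, 211 and 198 CPM in WT replicates 1 to 4 and 215, 305, 446 and 293 CPM in KO replicates 1 to 4, a range wider than the difference between genotypes. KO replicate 3 was the highest of the 8 libraries for 22 of the 45 genes, whereas it was the highest for 6.48% of all genes tested. WT replicate 2 was the highest for 11 (13.8% of all genes) and KO replicate 2 for 8 (23.3%). The other 4 members peaked in WT replicate 1 (2, against 11.9% of all genes), KO replicate 1 (1, 15%) and KO replicate 4 (1, 14.6%), and 0 in WT replicates 3 and 4 (6.78% and 8%). The lowest value was in WT replicate 3 for 14 members, in WT replicate 4 for 13 and in KO replicate 1 for 11. It was in KO replicates 2 and 4 for 3 each and in KO replicate 3 for 1, and the shares over all genes were not computed. The highest quiescent library exceeded the lowest by a median of 3.79-fold, from 1.68-fold for *Prc1* to 10.1-fold for *Kif11*. In the same library KO replicate 3, the summed fibroadipogenic progenitor markers were also highest (2302 CPM, against 664 to 1205 CPM in the 7 others) and so were the smooth muscle and pericyte markers (2609 CPM), and WT replicate 2 had the highest blood cell marker sum (404 CPM, with the haemoglobin gene *Hba-a1* at 218 CPM). Their part in the member levels was not tested.

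**Figure D2:**
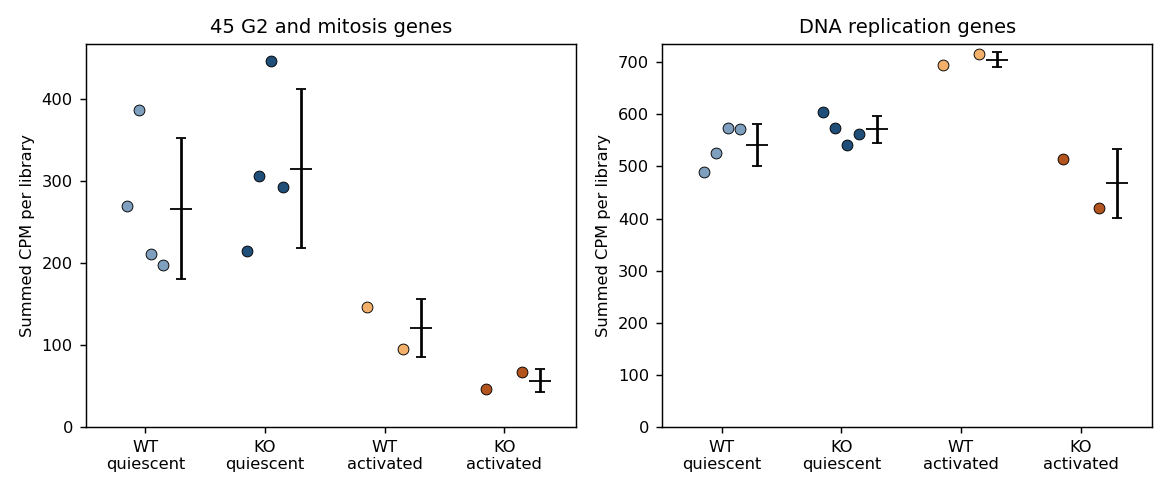
Summed CPM per library of the 45 G2 and mitosis genes (left) and of 30 DNA replication genes (right) in the 4 groups. Points are libraries and bars show the mean ± SD (n = 4 quiescent, n = 2 activated); the members were at 198 to 446 CPM in quiescent, 146 and 95.9 CPM in activated WT and 46.7 and 67.1 CPM in activated KO libraries.

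**Figure D3:**
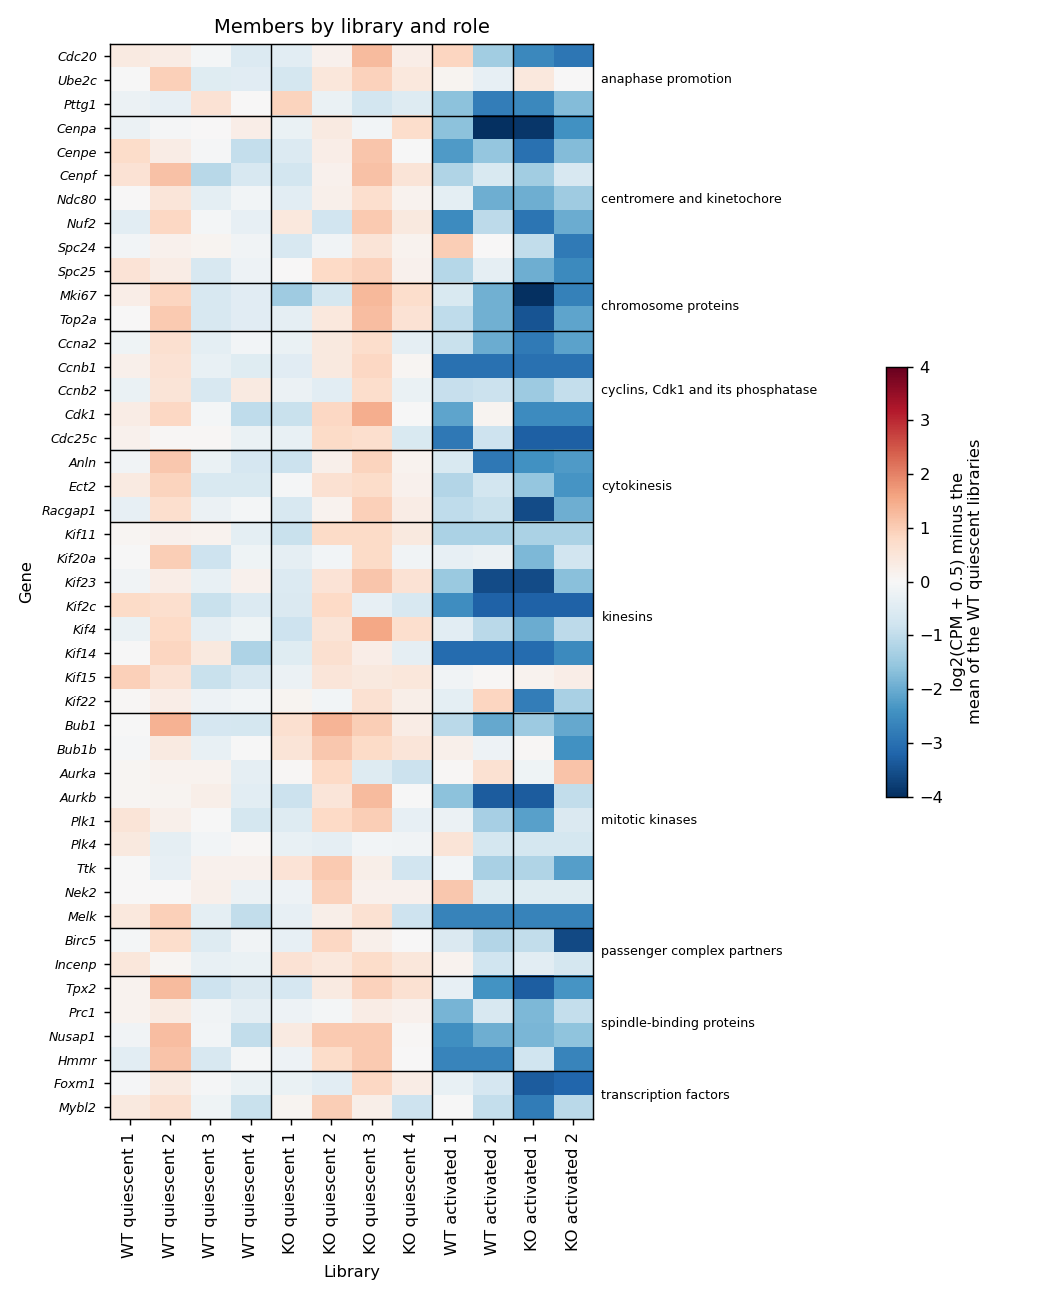
Level of each of the 45 genes (one line of cells per gene, grouped by role) in each of the 12 libraries, as log2(CPM + 0.5) minus the mean of the 4 quiescent WT libraries. KO quiescent replicate 3 and WT quiescent replicate 2 are the reddest quiescent columns, and the activated KO libraries are blue for most genes, with *Aurka*, *Ube2c* and *Kif15* as pale or red exceptions.

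Whether loss of *Cxcr4* changed these genes before culture was addressed by comparing the 4 KO with the 4 WT quiescent libraries, and no member was called in either direction. A gene was called at an adjusted p under 0.05 in edgeR's quasi-likelihood test, a log2 fold change beyond 1 and a mean normalised count over 10. By this rule 0.00776% of the 25771 genes tested were called higher and 0.00776% lower, and 0 members were called by edgeR or by DESeq2. At an unadjusted p under 0.05, 0 of the 44 members were higher or lower, against 1.09% and 0.648% of all genes. The median log2 fold change of the members was 0.25 (all genes, 0.02) with 7 of 44 below 0 (all genes, 46.6%). Without KO replicate 3 the median was 0.05 and 18 of 44 members were below 0, so the shift rested on that library, and without WT replicate 2 the median was 0.52.

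*Foxm1*, which encodes the transcription factor of the G2 programme, had 11.8, 16.0, 11.8 and 10.2 CPM in the quiescent WT libraries and 10.2, 9.02, 22.0 and 15.3 CPM in the KO libraries (replicates 1 to 4). *Mki67* had 34.2, 51.1, 17.8 and 20.3 CPM in WT and 10.3, 17.3, 70.0 and 46.1 CPM in KO. Both groups overlapped for both genes, and KO replicate 3 was the highest library. *Bub1b*, a kinase-related protein of the spindle checkpoint, was at 4.49, 6.10, 3.68 and 4.62 CPM in WT and 6.94, 10.3, 8.27 and 6.71 CPM in KO. It was the 1 tested member whose groups did not overlap, with every KO library above every WT library, a pattern found in 0.869% of all genes tested (0.827% had the reverse pattern). The fitted KO over WT value was 0.77 on the log2 scale (standard error 0.42), with an edgeR adjusted p of 1.

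The other highest log2 fold changes of KO against WT in quiescent libraries were 0.82 for *Nek2* (standard error 1.30), 0.77 for *Kif4* (0.66), 0.72 for the checkpoint kinase *Bub1* (0.65) and 0.59 for *Kif11* (0.87). The lowest were -0.26 for the microtubule depolymerase *Kif2c* (0.53), -0.17 for the kinase *Melk* (0.59), -0.10 for *Kif14* (0.52), and -0.05 for both *Ccnb2* (0.42) and *Pttg1* (0.35). None was called, and the edgeR adjusted p was 1 for each of them.

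Overnight culture was then compared with the quiescent state in each genotype. The comparisons in WT and KO use different libraries, and in both the median log2 fold change of all genes was below 0, at -0.92 in WT and -0.96 in KO, so the members are read against that shift. The size of the shift depended on the filter. With a mean count of at least 10 it was -0.46 in WT and -0.49 in KO, and the medians of the 43 members tested were -1.20 and -3.22. With no filter it was -1.93 and -1.84, and the members' medians were -1.24 and -3.32. In WT cells 14 of 44 members fell and 0 rose, while 15.7% of all genes were called lower and 9.59% higher. The members' median was -1.26 (-1.24 with genes at 0 counts set to their bound, explained below), and 38 of 44 were below 0 (66.9% of all genes). In KO cells 34 of 44 members fell and 0 rose, against 17.4% of all genes called lower and 11% called higher. There the median was -3.31 (-3.14 with bounds) and 43 of 44 were below 0 (66.2% of all genes). The summed level went from 266 ± 85.9 to 121 ± 35.5 CPM in WT, a log2 ratio of -1.14, and from 315 ± 96.4 to 56.9 ± 14.4 CPM in KO, a log2 ratio of -2.47 or 5.53-fold lower (SD, n = 4 quiescent and 2 activated).

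In WT the groups did not overlap, with both activated libraries below all 4 quiescent libraries, for 24 tested members (38.4% of all genes), and in KO for 40 (36.1%). Leaving out 1 library gave 8 to 13 members called lower in WT and 22 to 34 in KO. The count in WT was 8 without WT quiescent replicate 2 or WT activated replicate 1 and 9 without WT quiescent replicate 1 or WT activated replicate 2, and the count in KO was 22 without KO activated replicate 1. Mature fibre markers moved in the opposite direction, with all 8 called higher in both genotypes, whereas 7 and 8 of 8 satellite cell markers, 5 and 6 of 6 smooth muscle and pericyte markers and 3 and 6 of 10 blood cell markers were called lower in WT and KO. The part of these cell types and of depth in the result was not tested. Without the ribosomal RNA gene in the library sizes, 13 members were called lower in WT and 34 in KO.

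*Ccnb1*, which encodes cyclin B1, the main partner of CDK1, had 4.07, 5.32, 2.72 and 2.31 CPM in quiescent WT and 2.40, 4.65, 6.52 and 3.64 CPM in quiescent KO libraries and 0 counts in all 4 activated libraries. With 3 counts over the libraries of a group as the floor, it was at least 9.59-fold lower in activated WT and at least 12.1-fold lower in activated KO than in the quiescent cells. *Melk* and *Kif11* were likewise at 0 in all 4 activated libraries, which makes *Melk* at least 7.99-fold lower in WT (a call that ended without WT activated replicate 1) and 7.68-fold lower in KO. *Kif11* was at least 2.01-fold and 3.04-fold lower and was not called, its counts being few in every library. These bounds cover counting error in the group at 0 only and take the counts of the other group as exact. With counting error in both groups, the lower limits for *Ccnb1* were 7.75-fold in WT and 9.82-fold in KO. For *Kif11* they were 1.58-fold in WT and 2.42-fold in KO.

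*Cdk1* had 3.03, 4.54, 2.19 and 0.915 CPM in quiescent WT and 1.04, 4.65, 7.31 and 2.31 CPM in quiescent KO. In culture it had 0.163 and 2.63 CPM in WT and 0 counts in both KO libraries, at least 10.9-fold lower than in quiescent KO. The phosphatase gene *Cdc25c*, which activates CDK1, was also at 0 in activated KO (at least 14.0-fold lower), as was *Kif2c* (at least 10.2-fold lower). In activated WT, *Kif14* and the spindle protein gene *Hmmr* were at 0 counts, at least 11.5-fold and 7.70-fold lower than in quiescent WT, and the *Hmmr* call ended without WT activated replicate 1. In WT cells *Cdk1* overlapped between the states.

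*Ccna2*, which encodes cyclin A2, had 5.95, 10.9, 5.04 and 6.26 CPM in quiescent WT, 5.48, 9.02, 11.3 and 5.19 CPM in quiescent KO, 3.43 and 1.31 CPM in activated WT and 0.514 and 1.14 CPM in activated KO. It fell in KO by 3.20 on the log2 scale (standard error 0.66, adjusted p = 0.000919, edgeR), whereas in WT the log2 fold change was -1.44 (0.56, adjusted p = 0.0571, edgeR). *Ccnb2*, for cyclin B2, was at 3.60, 6.60, 2.68 and 5.83 CPM in quiescent WT, 3.70, 3.21, 7.48 and 3.59 CPM in quiescent KO, 2.12 and 2.19 CPM in activated WT and 1.28 and 2.05 CPM in activated KO. Every activated library lay below every quiescent library of its genotype for both cyclins, but *Ccnb2* was not called in either (log2 fold changes -1.11 in WT and -1.42 in KO).

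Among the mitotic kinases, *Aurkb*, the catalytic subunit of the passenger complex, was at 4.80, 4.97, 5.48 and 3.32 CPM in quiescent WT, 2.30, 6.63, 11.6 and 4.53 CPM in quiescent KO, 1.14 and 0 CPM in activated WT and 0 and 2.05 CPM in activated KO. It fell in both genotypes, by 2.63 in WT (standard error 0.94, adjusted p = 0.0416, edgeR) and by 2.56 in KO (0.89, adjusted p = 0.0333, edgeR) on the log2 scale. The WT call ended without WT quiescent replicate 1, 2 or 3, without WT activated replicate 2 and with the replicate block, and the KO call ended without KO quiescent replicate 3, without KO activated replicate 1, with the block and with the compared groups alone. *Aurka*, the spindle pole kinase, was at 4.02, 4.26, 4.25 and 2.84 CPM in quiescent WT, 3.96, 6.90, 2.53 and 1.89 CPM in quiescent KO, 3.92 and 6.13 CPM in activated WT and 3.34 and 8.90 CPM in activated KO. Its groups overlapped, and its log2 fold changes of 0.35 in WT (0.57) and 0.69 in KO (0.55) were not called. The difference between these aurora kinases was not itself tested.

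*Plk1*, the kinase that drives mitotic entry, had 4.39, 3.48, 2.89 and 1.64 CPM in quiescent WT, 1.93, 5.53, 6.36 and 2.22 CPM in quiescent KO, 2.45 and 0.876 CPM in activated WT and 0.257 and 1.83 CPM in activated KO, and was not called (log2 fold changes -0.78 and -1.91). *Bub1b* had 5.39 and 3.94 CPM in activated WT and 4.88 and 0.456 CPM in activated KO. It fell in KO by 1.62 on the log2 scale (standard error 0.60, adjusted p = 0.0450, edgeR), and its log2 fold change in WT was 0.01 (0.55). Both KO activated libraries lay below the quiescent KO libraries, by far the more in replicate 2, and the call ended under 7 of 15 alternatives, among them leaving out that library or KO quiescent replicate 1, 2 or 3.

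Both genes for chromosome proteins fell in KO. *Mki67* went to 18.3 and 7.01 CPM in activated WT and 0.771 and 3.88 CPM in activated KO, and fell in KO by 3.92 on the log2 scale (standard error 0.81, adjusted p = 0.000969, edgeR). *Top2a* had 16.5, 34.6, 10.4 and 11.9 CPM in quiescent WT and 12.6, 22.3, 39.0 and 24.7 CPM in quiescent KO, against 7.84 and 3.94 CPM in activated WT and 1.03 and 3.42 CPM in activated KO. It fell in both genotypes, by 1.56 in WT (0.56, adjusted p = 0.0402, edgeR) and 3.44 in KO (0.64, adjusted p = 0.000363, edgeR). The WT call ended with a robust fit, with the replicate block, and without WT quiescent replicate 1 or 2 or either WT activated library, while the KO call held under all 15 alternatives. All activated libraries lay below all quiescent libraries for *Top2a*, while *Mki67* overlapped in WT, where its log2 fold change of -1.22 was not called.

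*Cenpa*, which encodes the histone variant that marks centromeres, had 9.03, 10.4, 10.9 and 13.1 CPM in quiescent WT, 8.92, 13.9, 9.84 and 17.9 CPM in quiescent KO, 3.10 and 0 CPM in activated WT and 0.257 and 1.60 CPM in activated KO. It fell by 2.48 in WT (standard error 0.64, adjusted p = 0.00629, edgeR) and by 3.72 in KO (0.72, adjusted p = 0.000524, edgeR), and the WT call ended without WT activated replicate 2. *Birc5*, for the passenger complex subunit survivin, had 5.27, 9.44, 3.77 and 4.96 CPM in quiescent WT, 4.28, 10.2, 6.44 and 5.67 CPM in quiescent KO, 3.59 and 2.19 CPM in activated WT and 2.57 and 0 CPM in activated KO. Both genes were below the quiescent libraries in every activated library of the same genotype, and *Birc5* was called in KO alone (log2 fold changes -2.41 in KO and -0.96 in WT). That call ended without KO quiescent replicate 2, without KO activated replicate 2 and with the compared groups alone.

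By role, in the order WT and KO, the members that fell on culture were 0 and 2 of 2 transcription factors, 1 and 4 of 5 cyclin and *Cdk1* genes, 2 and 5 of 8 tested mitotic kinases and 0 and 2 of 2 passenger complex partners. They were also 3 and 6 of 7 centromere and kinetochore genes, 1 and 2 of 3 anaphase genes, 3 and 5 of 8 kinesins, 3 and 3 of 4 spindle-binding proteins, 0 and 3 of 3 cytokinesis genes and 1 and 2 of 2 chromosome proteins. The highest log2 fold changes in WT were 1.37 for *Nek2* (standard error 1.61), 0.70 for the kinetochore gene *Spc24* (0.64), 0.35 for *Aurka*, 0.32 for the chromosome-arm kinesin *Kif22* (0.53) and 0.17 for *Cdc20* (0.51), none of them called. In KO they were 0.69 for *Aurka*, -0.11 for *Kif15* (0.62), -0.18 for *Ube2c* (0.55), -1.16 for *Incenp* (0.41) and -1.42 for *Ccnb2* (0.62), of which *Incenp*, the scaffold of the passenger complex, was called, though not without KO quiescent replicate 3, without either KO activated library or with no filter. *Ube2c*, the APC/C ubiquitin-conjugating enzyme, held 4.90 and 3.50 CPM in activated WT and 6.16 and 4.56 CPM in activated KO, inside its quiescent range of 2.61 to 9.22 CPM.

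**Figure D4:**
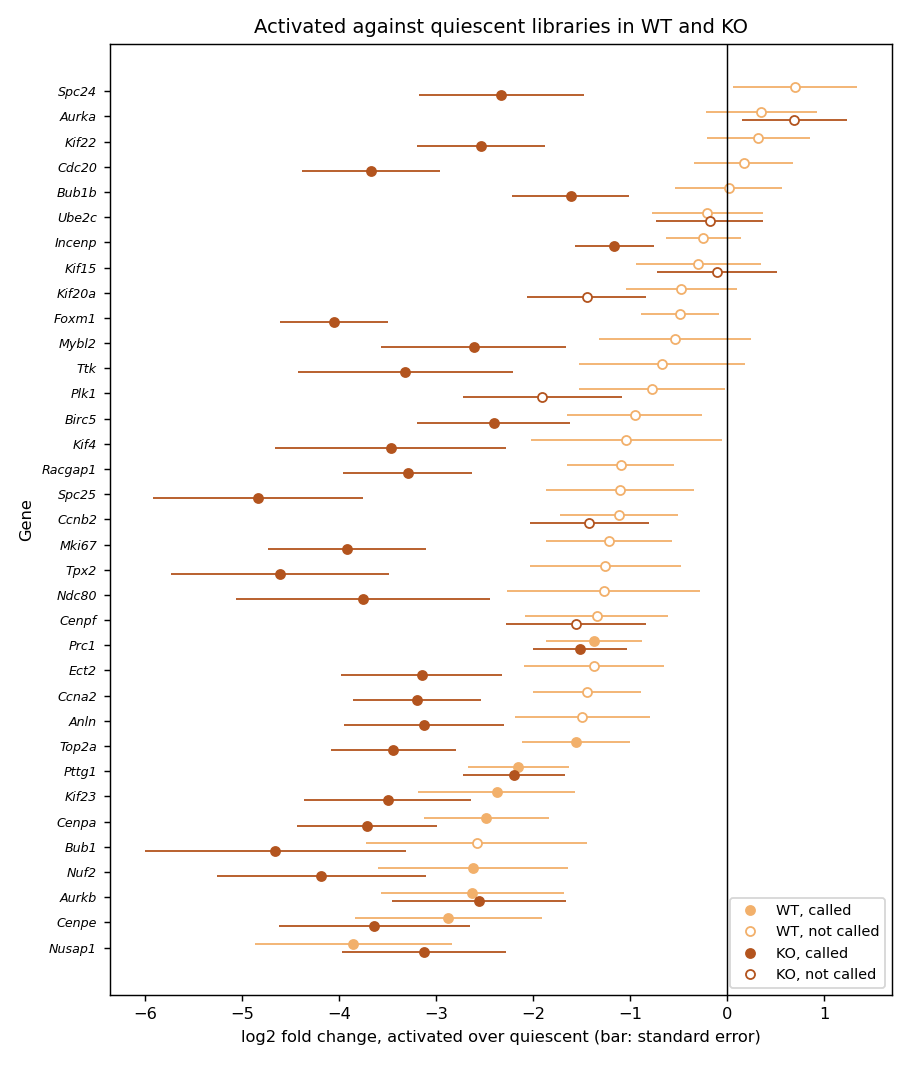
Log2 fold change of activated over quiescent libraries with its standard error for the 35 tested members that have counts in both activated groups, in WT and in KO, ordered by the WT value. Filled points were called and open points were not; KO points lie to the left of the WT points for most genes, by the most for *Cdc20*, *Spc25*, *Foxm1* and *Tpx2* among others, and *Aurka*, *Ube2c* and *Kif15* are near 0 in both.

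The direct comparison of KO with WT after overnight culture asks whether *Cxcr4* affected the genes in activated cells. Here 1 of the 44 members, *Foxm1*, was called, lower in KO, when 0.0194% of all genes were called lower and 0.031% higher. The summed level was 146 and 95.9 CPM in WT and 46.7 and 67.1 CPM in KO, so both KO libraries were below both WT libraries, with a mean 2.13-fold lower. The members' median log2 fold change was -1.24 (0 for all genes), and 34 of 44 were below 0 (37.6% of all genes). With *Cdk1*, *Cdc25c* and *Nek2*, which were at 0 in KO alone, set to their bounds, and 6 genes at 0 in WT or at no more than 2 counts in all left out, it was -1.20 over 38 genes. Genes without counts in any activated library have a log2 fold change of 0, which lowers the all-gene share below 0. With the compared groups alone, 12283 genes and 16 members were tested. There the members' median was -0.97 (all genes, 0.007), and 13 of the 16 were below 0. At an unadjusted p under 0.05, 11 members were lower and 1 was higher, against 4.11% and 4.26% of all genes, and 15 members had both KO libraries below both WT libraries and 2 above (9.5% and 15.2% of all genes).

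This rested on few reads and few libraries. The 45 genes together had 894 and 219 counts in the activated WT and 182 and 294 in the activated KO libraries, and 5, 13, 17 and 14 of them were at 0. WT replicate 1 was the highest of the 4 activated libraries for 23 members (23.5% of all genes) and WT replicate 2 for 12 (14%), against 2 (19.3%) and 5 (25.1%) for KO replicates 1 and 2. Without WT replicate 1 the median was -0.51 with 25 of 45 below 0, and 0 members were called. With KO replicate 1 or 2 left out the *Foxm1* call ended as well, with medians of -0.87 and -2.23, and without WT replicate 2 the median was -1.59. WT replicate 1 also had the highest summed CPM for several lists of other cell types among the activated libraries. Endothelial markers were at 749 CPM (109 to 380 CPM in the 3 others) and fibroadipogenic progenitor markers at 736 CPM (284 to 529 CPM). By mean log2 CPM, however, the fibroadipogenic progenitor markers were highest in KO replicate 2, at 5.16 against 4.64 in WT replicate 1. Smooth muscle and pericyte markers were at 367 CPM (172 to 258 CPM). Blood cell markers were at 129 CPM (76.4 to 94.0 CPM, with 1 to 3 of the 10 at 0 in each library). Schwann cell markers were highest in KO replicate 2 at 200.3 CPM. Between activated KO and WT the smooth muscle and pericyte markers had a median log2 fold change of -0.84 with 5 of 6 below 0, and 7 of 8 endothelial markers were below 0. The median was -0.56 for blood cell markers (6 of 10 below 0), 0.40 for fibroadipogenic progenitor markers (2 of 8) and 0.63 for Schwann cell markers (1 of 4). Of all genes, 37.6% were below 0. Their part in the result was not tested.

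*Foxm1* (ENSMUSG00000001517, chromosome 6, 128362967 to 128376146 on GRCm38) had 61 and 17 counts, or 9.97 and 7.44 CPM, in activated WT and 3 and 4 counts, or 0.771 and 0.913 CPM, in activated KO. Both KO libraries were below both WT libraries, and the spread within each genotype was small beside the gap. On the log2 scale KO was at -3.37 relative to WT (standard error 0.60), with an adjusted p = 0.0480 by the edgeR quasi-likelihood test. Pooled over libraries, the counts gave an 11.0-fold ratio with a 95% counting interval of 5.08 to 28.2. Relative to its own quiescent libraries *Foxm1* fell in KO by 4.05 (0.55, adjusted p = 1.42e-05, edgeR) and was at -0.49 in WT (0.40, adjusted p = 0.339, edgeR). In the test of the difference between these 2 effects the log2 value was -3.56 (0.67, adjusted p = 0.0993, edgeR), which missed the threshold. The *Foxm1* call between genotypes was also lost under a stricter filter (mean count from 10 upwards) and when only the compared groups were fitted.

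*Mybl2*, which encodes the MYB factor that acts before FOXM1 at the same promoters, was at 4.12, 4.97, 2.63 and 1.40 CPM in quiescent WT, 3.29, 6.35, 3.61 and 1.46 CPM in quiescent KO, 2.94 and 1.31 CPM in activated WT and 0 and 1.14 CPM in activated KO. Its KO and WT activated libraries did not overlap, and its log2 fold change of -1.92 (standard error 1.07) was not called. Between the states it fell in KO, by 2.62 (0.95, adjusted p = 0.0407, edgeR), a call that ended without KO quiescent replicate 2 or 3, without KO activated replicate 1 and with the compared groups alone.

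*Cdc20* (chromosome 4, 118432901 to 118437352) had the lowest log2 fold change among members with counts in every activated library, and its promoter is printed above with 1 CHR core and 1 CCAAT. It was at 12.9, 12.6, 9.43 and 6.70 CPM in quiescent WT and 7.46, 11.5, 24.8 and 12.3 CPM in quiescent KO, then at 18.6 and 3.50 CPM in activated WT and 1.28 and 0.913 CPM in activated KO. Activated WT ranged from below to above the quiescent libraries, while both KO libraries were far below. KO relative to WT was at -3.41 on the log2 scale (standard error 0.76, edgeR adjusted p = 0.133). It lay between -4.16 and -1.77 with 1 library left out, so the value depended on WT replicate 1, which held 114 of its 122 WT counts.

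*Mki67* was at 18.3 and 7.01 CPM in activated WT against 0.771 and 3.88 CPM in activated KO, without overlap, which gave -2.47 on the log2 scale (standard error 0.87, edgeR adjusted p = 0.400). Other members with an unadjusted p under 0.05 and counts in both groups were *Kif22* at -2.61 (0.73), *Spc24* at -2.98 (0.93), the NDC80 complex gene *Spc25* at -3.19 (1.29), *Tpx2*, which loads Aurora A onto the spindle, at -3.16 (1.28), the cytokinesis regulator *Racgap1* at -1.93 (0.75) and *Ccna2* at -1.61 (0.76). Their adjusted p in edgeR's test was between 0.241 and 0.595. The *Tpx2* groups overlapped, with 21 and 1 counts in WT and 0 and 2 in KO. Of the WT counts of *Spc24* and *Ccna2*, 40 of 47 and 21 of 24 came from WT activated replicate 1. *Cdk1* had 7 counts in WT and 0 in KO, and *Cdc25c* and *Nek2* had 6 and 0. Taking 3 counts as the KO floor and the WT counts as exact, KO was at least 2.30-fold lower for *Cdk1*. For *Cdc25c* and *Nek2* it was at least 1.97-fold lower on that basis. With counting error in both groups, the lower limits were 1.42-fold for *Cdk1* and 1.16-fold for *Cdc25c* and *Nek2*. All 6 WT counts of *Nek2* came from WT activated replicate 1. *Kif2c* had 2 and 0 counts, under the floor in both.

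In the other direction, *Hmmr* had 5 counts in KO replicate 1 and 0 in the other activated libraries (adjusted p = 0.590, edgeR), and *Kif14* had 1 count in KO replicate 2. *Nusap1* was at 1.25 (standard error 1.31) on 2 counts in WT and 5 in KO, *Aurkb* at 0.50 (1.16) and *Aurka* at 0.32 (0.67). None of these 5 differences passed the threshold at this depth.

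**Figure D5:**
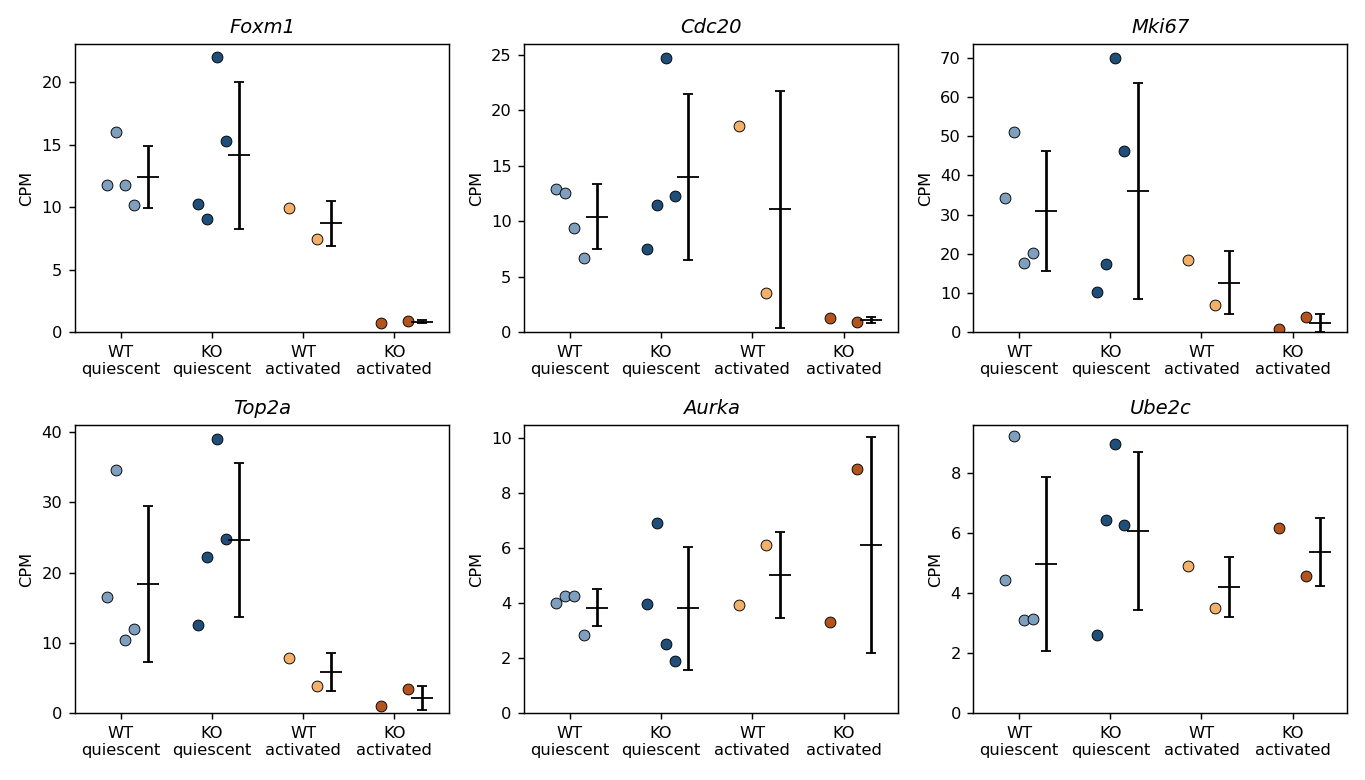
CPM of 6 members in every library of the 4 groups, with bars for the mean ± SD (n = 4 quiescent, n = 2 activated) and axes that start at 0. *Foxm1*, *Cdc20*, *Mki67* and *Top2a* have their lowest values in the 2 activated KO libraries, *Cdc20* has 1 high activated WT library at 18.6 CPM, and *Aurka* and *Ube2c* overlap between all groups.

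Whether the KO effect differed between the states was tested directly as the KO effect in activated minus that in quiescent cells. No member was called and 0% of all genes were, by edgeR. At an unadjusted p under 0.05, 11 of 44 members were lower and 0 higher, against 3.39% and 3.2% of all genes, and DESeq2 called 2 members. The median was -1.60 (0.02 for all genes) and 36 of 44 were below 0 (49% of all genes). The lowest value with counts in all groups was -3.84 for *Cdc20* (standard error 0.87, adjusted p = 0.257, edgeR), and the highest were 0.73 for *Nusap1* (1.39), 0.34 for *Aurka* (0.80) and 0.19 for *Kif15* (0.89). *Cdk1*, *Cdc25c*, *Nek2* and *Kif2c* had lower fitted values and *Hmmr* and *Kif14* higher ones, each with a group at 0 counts, for which no fold is given. Although more members fell on culture in KO than in WT, none passed edgeR's test of the difference itself. DESeq2 called *Foxm1* and *Cdc20* in that comparison, among 53 calls over all 25771 genes. With no filter on low counts, edgeR called 3 members, among 170 calls over 46597 genes.

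Other genes that act on the same steps were taken from lists of their complexes. Their calls on culture stand beside those of all genes, of which 9.59% rose and 15.7% fell in WT, and 11% rose and 17.4% fell in KO. Among 6 genes that brake or release CDK1, 1 rose and 4 fell in both genotypes. *Cdc25a*, the phosphatase of the G1 to S step, rose by a log2 fold change of 2.21 in WT (standard error 0.27) and 2.27 in KO (0.27). *Pkmyt1*, a kinase that inhibits CDK1, fell by 2.50 in WT (0.48) and fell by 6.04 in KO (0.69). Its activated KO libraries had 0.257 and 0.228 CPM, under the 3-count floor of 0.362 CPM, so the size of that fall is poorly known. *Cdc25b* fell by 2.42 in KO (0.33), and its mean went from 40.7 to 16.5 CPM in WT. *Gadd45a*, a stress-induced inhibitor, fell by 1.47 in WT (0.30), and its mean went from 436 to 192 CPM in KO. Of 16 APC/C subunits and regulators, 0 fell in either genotype, and 0 in WT and 2 in KO rose, *Cdc26* by 1.27 (0.32) and *Anapc16* by 1.23 (0.24). Their summed level was 467 to 516 CPM in quiescent and 492 to 563 CPM in activated libraries. These ranges overlapped, and the difference of the APC/C genes from the members was not tested.

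Of 9 further checkpoint and Mis12 complex genes, *Bub3* and *Mis12* rose in both genotypes, by 1.29 (0.25) and 1.52 (0.26) in WT and 1.24 (0.25) and 1.32 (0.26) in KO, and the kinetochore scaffold *Knl1* fell in KO by 4.45 (1.17). Of 16 condensin and cohesin genes, 4 fell in WT (15.7% of all genes) and 8 in KO (17.4%), and 0 rose (9.59% and 11%). *Ncapd3* of condensin II, *Espl1*, the separase that cuts cohesin, and *Smc1a* fell in WT by 1.89 (0.40), 1.81 (0.56) and 1.67 (0.25), and in KO *Ncapg*, *Espl1* and *Ncaph* fell by 3.98 (1.21), 3.70 (0.66) and 3.14 (0.86). Of 11 MuvB and DREAM genes, 2 fell in WT (15.7% of all genes), *Tfdp2* by 1.27 (0.34) and *Rbl2* by 1.04 (0.31), and 0 were called in KO. No gene of these 5 lists was called between KO and WT in either state by edgeR. At an unadjusted p under 0.05, 2 of the CDK1 list, 1 of the checkpoint list and 3 of the condensin and cohesin list were lower and 1 of the APC/C list was higher in activated KO, and 0 differed in quiescent cells. Over all genes, 4.11% were lower and 4.26% higher in activated KO by that limit, and 0.648% and 1.09% in quiescent KO.

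DNA replication genes act before G2, and their values stand beside those of the members without a test of the difference. Of 30, 10 rose and 1 fell on culture in WT (9.59% and 15.7% of all genes), with a median of 0.36 against -0.92 over all genes. In KO 3 rose and 6 fell (11% and 17.4% of all genes), with a median of -0.53 against -0.96. The helicase genes *Mcm2* and *Mcm3* rose in WT by 2.25 (standard error 0.36) and 2.11 (0.35), and the initiation factor gene *Cdc45* fell (adjusted p = 0.0222, edgeR). In KO the DNA ligase gene *Lig1*, *Mcm4* and the polymerase gene *Pole* fell by 2.79 (0.87), 2.43 (0.34) and 1.98 (0.53). Their summed level was 695 and 715 CPM in activated WT and 514 and 421 CPM in activated KO, against 490 to 605 CPM in the quiescent libraries. Between activated KO and WT, 2 were called, both lower in KO. These were *Rrm2*, the ribonucleotide reductase subunit, at 39.4 and 37.2 CPM in WT and 7.96 and 3.19 CPM in KO (-2.79, 0.45, adjusted p = 0.0356, edgeR), and *Mcm4*, at 25.5 and 34.6 CPM in WT and 7.96 and 5.02 CPM in KO (-2.20, 0.37, adjusted p = 0.0429, edgeR). Both KO libraries were below both WT libraries for 17 of the 30 (9.5% of all genes).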

How the data were processed

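RNA-seq libraries of sorted satellite cells were analysed in 4 groups (4 + 4 quiescent, 2 + 2 activated). Raw counts per gene were deposited by the authors, who trimmed reads with Trim Galore 0.6.0, aligned them to GRCm38.p6 with STAR 2.7.2a and counted GENCODE genes with Rsubread. The deposited group FPKM values have no replicates and were not used. The study tested with DESeq2 1.34.0; here edgeR 4.0.16 in R 4.3.3 was run on the counts of all 12 libraries (TMM scaling, filterByExpr, quasi-likelihood F test with the 4 group means, Benjamini-Hochberg adjustment over 25771 genes), with DESeq2 1.42.0 as an alternative. The study's published list of genes that differed in activated cells, at the same call limits, holds none of the members. Each standard error given is the absolute log2 fold change divided by the square root of the quasi-likelihood F statistic, so it is derived from the test. The script was tested on simulated data. CPM are TMM-scaled, and CPM per kb use the merged exon length of the GENCODE annotation of the same build. Depth was 3172164 to 23717013 counts. Intervals and bounds cover counting error only, since no molecular identifiers are reported.

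The 45 members and all lists were chosen with earlier results of these data known. The genes given library by library were 15 named members and any further member called between genotypes, and those given by fold change were the 5 highest and 5 lowest of each contrast. Those given by level were the 5 highest and 5 lowest per kb in quiescent WT, and companion genes were limited to 3 per list and contrast. Alternatives changed the scaling, filter, tool, robust fit, libraries in the fit, threshold, replicate block, ribosomal RNA gene and each library in turn. Promoter windows and sequences are from RefSeq on GRCm38.p6.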

Additional observations from a re-analysis of the deposited data

Results flagged for a closer look

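Each of the 45 members and their summed level were examined over the 4 quiescent libraries of each genotype, which makes 92 groups. Of these, 6 had 1 library whose gap to the nearest other exceeded Dixon's 95% critical value for 4 samples when divided by the group's range, and chance gives about 1 in 20 such groups. In WT quiescent replicate 4 the low values were 2.84 CPM for *Aurka* and 0.433 CPM for *Kif11*, and in WT quiescent replicate 2 the high value was 2.98 CPM for *Kif4*. In KO quiescent replicate 3, which also had the highest summed level, the high values were 7.48 CPM for *Ccnb2* and 9.97 CPM for *Kif20a*. In KO quiescent replicate 2 the high value was 7.65 CPM for *Kif2c*.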

How the results depend on the processing

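Of the results recomputed under the alternatives, 601 values kept their direction and side of the threshold, 38 changed sign, 12 passed the threshold anew or became a larger count and 9 no longer passed it or became a smaller count. Over all genes, the calls between activated KO and WT were 13 of 25771 in the main fit, 325 of 46597 with no filter and 147 of 25771 by DESeq2. For the difference between states they were 0 of 25771, 170 of 46597 and 53 of 25771, so calls rose well beyond the members. The count of members called between activated KO and WT was 3 with no filter (*Foxm1*, *Mki67*, *Cdc20*) and 2 by DESeq2 (*Foxm1*, *Cdc20*). It was 0 with a mean count of at least 10 or with the compared groups alone, where 16 members could be tested. Leaving out 1 library gave 0 to 2. The difference between states gave 3 with no filter, 2 by DESeq2 and 0 to 2 with 1 library left out, and culture gave 8 to 13 in WT and 22 to 34 in KO. Where 1 library remained in a group, it was assumed to vary like the other groups. The mean of log2 CPM changed with culture by -1.66 in WT and -2.94 in KO, against log2 ratios of the sums of -1.14 and -2.47. The cause of these changes was not tested.

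Whether replicate numbers pair the libraries was not settled. Deviations of same-numbered quiescent libraries correlated at 0.296, 0.157, -0.340 and 0.631, and not every library correlated best with its own number. Their depths were near, at 17532019 and 17238391 counts in WT and KO replicate 1, 12775593 and 13075208 in replicate 2, 23058947 and 22897189 in replicate 3, and 22785815 and 23717013 in replicate 4. In activated cells the value was -0.101. With 2 libraries per group the deviations mirror each other, so it cannot show pairing or its absence. With the replicate block, 1 member was called in activated KO against WT, 0 in quiescent cells, 0 for the difference between states, 11 on culture in WT and 30 in KO. With the activated KO numbers crossed in the block, chosen after seeing the data, the first count was again 1. The block turned the sign of *Kif14* (0.026) and *Mki67* (-0.026) for KO against WT in quiescent cells, *Kif15* (-0.044) for the difference between states and *Aurka* (-0.046) for culture in WT.

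With 1 library left out, the sign turned for the members that follow. For KO against WT in activated cells, *Aurka* ran from -0.61 to 0.84 and *Aurkb* from -6.59 to 6.98. In quiescent cells the ranges were -0.76 to 0.040 for *Kif2c*, -0.50 to 0.30 for *Melk*, -0.41 to 0.27 for *Kif14*, -0.41 to 0.18 for *Ccnb2*, -0.55 to 0.18 for *Pttg1*, -0.11 to 0.36 for *Foxm1*, -0.015 to 0.52 for *Ccnb1* and -0.32 to 0.60 for *Mki67*. For the difference between states they were -0.25 to 0.46 for *Kif15*, -0.60 to 0.86 for *Aurka* and -0.17 to 1.23 for *Nusap1*. For culture in WT they were -1.49 to 0.90 for *Cdc20*, -0.39 to 0.98 for *Kif22*, -4.70 to 2.26 for *Nek2* and -3.90 to 0.063 for *Cdk1*, and in KO -0.42 to 0.078 for *Ube2c* and -0.17 to 1.23 for *Aurka*. *Foxm1* in activated KO against WT stayed between -3.63 and -3.22.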

Other observations

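Members with and without the CHR core can be set side by side on culture. Of the 26 members with TTTGAA in a RefSeq promoter window, all tested, 18 fell in KO (median log2 fold change -3.31) and 7 fell in WT (-1.23). Of the 11 members with a window but without TTTGAA, 10 could be tested, and of those 9 fell in KO (-3.91) and 6 in WT (-2.60). Between activated KO and WT the medians were -1.23 with and -0.86 without the core. The difference between these groups of genes was not tested. Among 18 windows of 15 APC/C genes, TTTGAA occurred in 16.7% and CCAAT in 44.4%.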
